A study of Mus musculus with 14 samples.

Results

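Transcripts of 7 genes of the apoptosis execution machinery were followed in mouse tumour cells treated with an agonist of RIG-I, a cytosolic sensor of viral RNA, and in cells treated with a control agonist. The genes were Casp9, Apaf1, Casp6, Diablo, Xiap, Birc2 and Birc3, taken as a listed set by symbol through their Ensembl identifiers, and they are 7 of the 34866 identifiers in each of 3 count tables. All 7 were found, each under 1 identifier, and all 7 passed the filter on low counts in every line.

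CT26 cells with RIG-I agonist (3 libraries) were set against CT26 cells with control agonist (3 libraries), and the same comparison was made in E0771 and in MC38 with 2 libraries per agonist. CT26 is a BALB/c colorectal carcinoma line, E0771 a mammary carcinoma line and MC38 a colon adenocarcinoma line, both of C57BL/6 origin. Every library shared the growth in serum, the plating at 100000 cells per well and a dose of 0.5 ug/ml of its agonist, and RNA was taken after 24 h, so all differences are relative to cells that also received an agonist. Each line is a single cell line, and the labels do not tell whether replicates were cultured separately, so a p-value here reflects differences among the libraries alone, and those could be technical.

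Apoptosis from mitochondria runs through cytochrome c, which binds the adaptor APAF1, the product of Apaf1, to form the apoptosome. The apoptosome activates the initiator caspase-9, which sets off the executioner caspases that take the cell apart, caspase-6 among them. Inhibitor of apoptosis (IAP) proteins hold this cascade back. XIAP binds and inhibits caspases directly, whereas cIAP1 (Birc2) and cIAP2 (Birc3) are ubiquitin ligases of TNF receptor complexes that steer NF-kB signalling and cell death. SMAC, the product of Diablo, leaves mitochondria with cytochrome c and displaces IAP proteins from caspases. BIRC3 is a long-known target gene of NF-kB in human cells, and RIG-I signals through NF-kB as well as through interferon regulatory factors.

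On GRCm38, Casp9 lies at chr4:141793612-141815976 (plus strand, overlapping Cela2a and Ctrc), Apaf1 at chr10:90989311-91082770 (minus strand), Casp6 at chr3:129901425-129914103 (plus strand), Diablo at chr5:123509765-123524176 (minus strand) and Xiap at chrX:42059679-42109656 (plus strand). Birc2 and Birc3 are neighbours. On the same build Birc3 (ENSMUSG00000032000.17) lies at chr9:7848699-7873186 and Birc2 (ENSMUSG00000057367.12) at chr9:7818227-7837064, both on the minus strand, 11.6 kb apart with 0 annotated genes between them. The 250 bases before the RefSeq start of each gene are shown because these neighbours were the members that rose in CT26. Birc2 has more than 1 RefSeq start, and the one farthest upstream was used. Both are from RefSeq on build GRCm38.p6, on the minus strand, 5′ to 3′, at chr9:7873171-7873420 for Birc3 and chr9:7837058-7837307 for Birc2. Capitals mark a match, on either strand, to a loose kappa B motif (GGG, any 5 bases, CC), which 50.8% of all RefSeq promoter windows held.
Birc3: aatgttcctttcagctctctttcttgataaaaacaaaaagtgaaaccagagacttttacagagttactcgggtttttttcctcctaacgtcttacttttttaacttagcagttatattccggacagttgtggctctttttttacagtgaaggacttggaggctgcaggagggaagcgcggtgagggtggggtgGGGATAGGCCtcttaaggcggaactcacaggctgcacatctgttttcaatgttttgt
Birc2: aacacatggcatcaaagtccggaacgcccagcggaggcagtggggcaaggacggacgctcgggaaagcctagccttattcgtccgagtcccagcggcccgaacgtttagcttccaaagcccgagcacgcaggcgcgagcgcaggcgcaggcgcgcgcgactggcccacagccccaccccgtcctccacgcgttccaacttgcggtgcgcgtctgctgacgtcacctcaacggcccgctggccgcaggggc

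The Birc3 stretch held 43.6% G and C with 6 CpG dinucleotides, and the Birc2 stretch held 68.4% with 31. The median over the same stretch of all 32851 RefSeq promoter windows was 52.4%, and 20.1% of windows were lower than Birc3. All 7 members had a window, 10 in all, of 300 bases from 250 before to 50 after the start. A kappa B motif of NF-kB (GGG, any 2 bases, TTTCC), read on both strands, was in 0 of the 10 and in 1.63% of all windows. The core of the interferon response motif (GAAA, any 2 bases, GAAA), also on both strands, was in 0 of the 10 and in 3.44% of all windows. The loose kappa B motif, which includes every match of the first one and was added after those gave no match, was in 6 of the 10 and in 50.8% of all windows. Besides Birc3, windows of Casp6, Casp9, Diablo, Apaf1 and Xiap held it, so it does not set Birc3 apart. A missing match says only that these letters are absent from these windows.

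CT26 libraries held 32826700 to 40564100 estimated counts, E0771 libraries 12413300 to 13399200 and MC38 libraries 12347400 to 18964600. A single member had 22 to 2757 counts per library, with Birc3 lowest at 22 to 286. All 4 genes checked for the response to the agonist (Ifnb1, Ifit1, Isg15 and Ddx58) rose in every line. Of 7 epithelial markers, 2 were tested in CT26, 1 in E0771 and 0 in MC38, where their summed level was 0.158 to 0.163 CPM (counts relative to the scaled total of the library) with RIG-I and 0.257 to 0.614 CPM with control agonist. In CT26 the sum was 16.0 to 17.9 CPM with RIG-I and 20.5 to 25.2 CPM with control agonist, and in E0771 209 to 236 and 223 to 278 CPM. Epcam, Cdh1, Krt19, Cldn3 and Cldn7 passed the filter in none of the 3 lines. The 6 leukocyte markers together reached 3.94 to 4.64 CPM with RIG-I and 2.97 to 3.52 CPM with control agonist in CT26, 4.54 to 11.5 and 3.12 to 7.71 CPM in E0771, and 3.10 to 3.34 and 3.69 to 4.57 CPM in MC38, with 3 to 5 of them at 0 in some library. The 5 fibroblast markers summed to 1148 to 1182 CPM with RIG-I and 1298 to 1652 CPM with control agonist in CT26, to 160 to 208 and 192 to 284 CPM in E0771, where they overlapped, and to 50.8 to 56.2 and 80.1 to 80.4 CPM in MC38. The 4 endothelial markers summed to 3.07 to 3.37 CPM with RIG-I and 1.05 to 2.21 CPM with control agonist in CT26, with Cdh5 and Tek too low to test. Among them Kdr rose in CT26, with 42, 36 and 30 counts with RIG-I agonist and 0, 0 and 1 counts with control agonist (adjusted p = 1.62e-06). The endothelial sums overlapped in E0771 (11.2 to 13.8 and 7.32 to 12.5 CPM) and in MC38 (11.7 to 12.7 and 11.2 to 16.2 CPM). Several of these sums came mostly from 1 gene. With RIG-I agonist the mean was 16.3 CPM for Krt18, 3.80 for Cd68 and 1016 for Col1a2 in CT26, and 222 for Krt8 in E0771. The part of these marker shifts in the results was not tested.

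CT26 cells with RIG-I agonist held more Birc3 and Birc2 transcript and less Casp6 and Xiap transcript than those with control agonist. In MC38 Birc3 rose and Casp9 fell by edgeR, and DESeq2 called neither (adjusted p = 0.0996 and 0.302). In E0771 the largest fold of any member, that of Birc3, did not pass the adjusted test by edgeR. DESeq2 called it there (adjusted p = 0.000782). Of the 7 members, 2 rose and 2 fell in CT26, where 38.4% of all genes tested were called at an adjusted p under 0.05 (19.8% higher, 18.6% lower) and 47.2% had an unadjusted p under 0.05. In MC38 1 rose and 1 fell against 35.8% called (18.9% higher, 16.9% lower; 44.2% by unadjusted p). In E0771 0 members were called against 1.56% of genes (1.53% higher, 0.0256% lower; 10.6% by unadjusted p), and Birc3 alone had an unadjusted p under 0.05. CT26 gave the 7 genes a median log2 fold change of -0.06, E0771 one of 0.00 and MC38 one of -0.11, beside 0.00, -0.01 and 0.00 over all genes tested. Adjusted p-values are from edgeR's quasi-likelihood test with Benjamini-Hochberg adjustment over all genes tested in a line, and fold changes are RIG-I over control agonist.

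**Figure D1:**
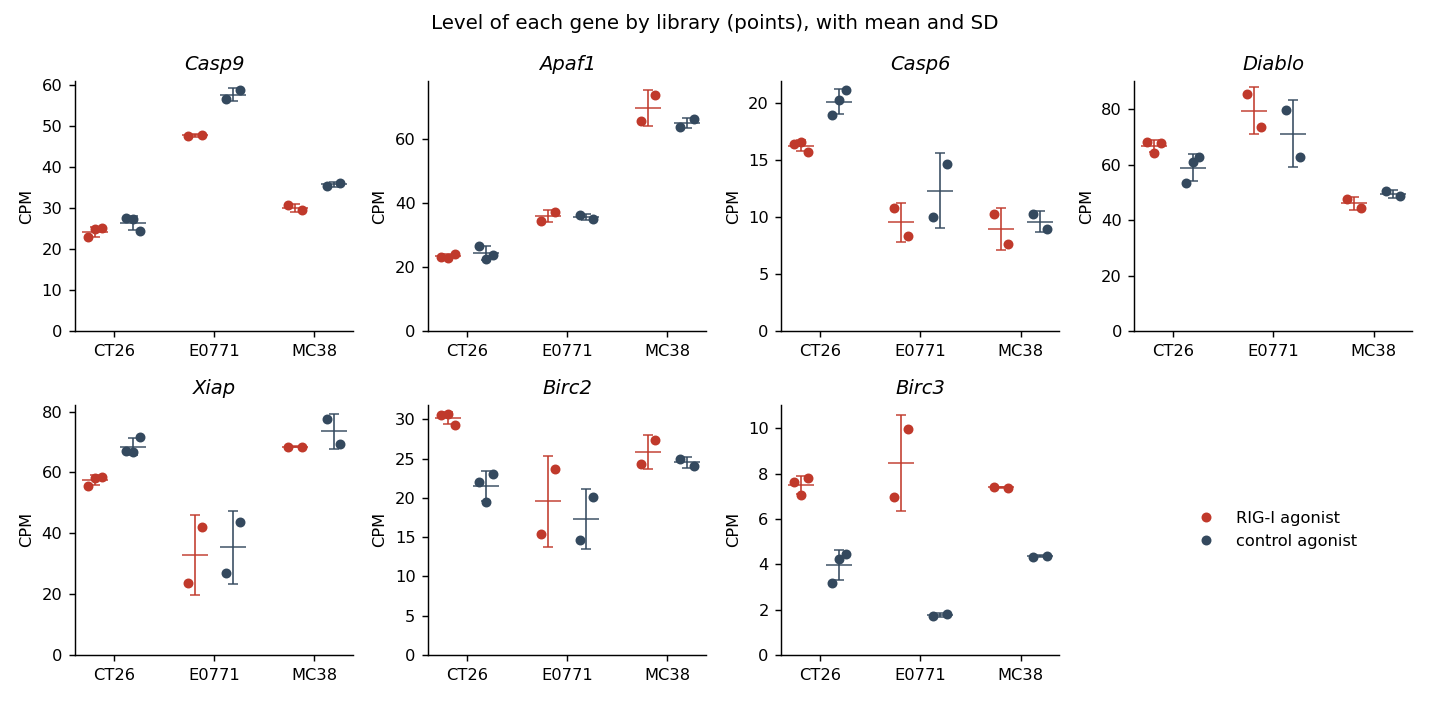
Level in CPM (vertical axes, from 0) of each gene by line and agonist, with RIG-I agonist in red left of control agonist in dark blue. Points are libraries, and bars give mean and SD. The Birc3 points with RIG-I agonist lie above those with control agonist in all 3 lines.

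Birc3, which encodes cIAP2, had 7.63, 7.03 and 7.78 CPM in CT26 cells with RIG-I agonist, against 3.19, 4.24 and 4.45 CPM with control agonist. It rose 1.88-fold (log2 fold change 0.91, SE 0.13, adjusted p = 0.000108). In MC38 it had 7.41 and 7.36 CPM with RIG-I agonist, against 4.31 and 4.38 CPM with control agonist. The rise was 1.70-fold (log2 0.76, SE 0.17, adjusted p = 0.00155), but DESeq2 gave an adjusted p = 0.0996. E0771 cells had 6.96 and 9.97 CPM with RIG-I agonist and 1.71 and 1.81 CPM with control agonist, a ratio of 4.79 (log2 2.26, SE 0.34, unadjusted p = 0.00103, adjusted p = 0.06 by edgeR). The RIG-I libraries lay above all control libraries in each line, and no overlap of groups was seen for 51.4% of genes tested in CT26, 40.3% in E0771 and 67.2% in MC38. In E0771 Birc3 was called by DESeq2 (adjusted p = 0.000782), by edgeR without the filter on low counts (adjusted p = 0.0146) and with the spread shared over all 14 libraries (adjusted p = 2.72e-05). It was also called by edgeR with a replicate block, a term for same-numbered libraries (adjusted p = 1.77e-05), a pairing that the labels do not state. With RIG-I agonist the mean level, scaled within each line, was 7.48 ± 0.40 CPM in CT26 (SD, n = 3), 8.46 ± 2.13 in E0771 and 7.39 ± 0.03 in MC38 (n = 2 each), whereas with control agonist it was 3.96 ± 0.68, 1.76 ± 0.07 and 4.34 ± 0.05 CPM.

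The effect on Birc3 differed between lines in 1 edgeR fit of all 14 libraries. It was smaller in CT26 than in E0771 by 1.39 on the log2 scale (difference -1.39, SE 0.29, adjusted p = 0.0166), where 3.88% of genes were called. E0771 exceeded MC38 by 1.49 (SE 0.32, adjusted p = 0.0297), where 2.11% were called. This second difference was lost in 10 of the 14 fits without 1 library (adjusted p up to 0.117), namely without any MC38 library, any CT26 library with RIG-I agonist, either E0771 control library or E0771 RIG-I replicate 2. The difference between CT26 and E0771 was called in all 14 such fits (adjusted p up to 0.0484). CT26 exceeded MC38 by 0.10 (SE 0.27, adjusted p = 0.903), where 3.8% were called. The control libraries of E0771 were also low in Birc3 in that fit, by 1.31 on the log2 scale against MC38 (difference -1.31, SE 0.25, adjusted p = 0.000408), and CT26 was above E0771 by 1.28 (SE 0.22, adjusted p = 0.000182). None of the other 6 members had a called difference in effect between any pair of lines.

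Birc2, which encodes cIAP1, had 30.6, 30.7 and 29.2 CPM in CT26 cells with RIG-I agonist, against 22.04, 19.4 and 23.0 CPM with control agonist. It rose 1.40-fold (log2 0.49, SE 0.07, adjusted p = 0.000188), and the groups did not overlap. In E0771 it had 15.4 and 23.7 CPM with RIG-I agonist and 14.6 and 20.1 CPM with control agonist (log2 0.17, 95% interval -0.56 to 0.90). In MC38 it had 24.3 and 27.4 CPM with RIG-I agonist and 25.0 and 24.0 CPM with control agonist (log2 0.08, 95% interval -0.09 to 0.26). The groups overlapped in both of these lines. Estimated counts were not whole numbers in 10 libraries for Birc2 and in 13 of the 14 for Birc3, so reads of these related neighbours may have been divided between them or with other sequences.

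Xiap encodes the IAP that inhibits caspases directly. It had 55.6, 58.1 and 58.5 CPM in CT26 cells with RIG-I agonist, against 67.0, 66.6 and 71.8 CPM with control agonist. It fell to 0.838 of the control level (log2 -0.25, SE 0.06, adjusted p = 0.00438), with no overlap between the groups. With the spread shared over all 14 libraries the fall was not called (log2 -0.30, SE 0.18, adjusted p = 0.257). It was called in each of the 6 edgeR fits of CT26 without 1 library (adjusted p up to 0.0334). In MC38 Xiap had 68.5 and 68.3 CPM with RIG-I agonist and 77.6 and 69.4 CPM with control agonist (log2 -0.11, 95% interval -0.23 to 0.01, adjusted p = 0.15). Those groups did not overlap, and without control replicate 2 the fall was called (adjusted p = 0.0339). E0771 cells had 23.6 and 42.2 CPM with RIG-I agonist and 26.9 and 43.7 CPM with control agonist. There the library numbered 1 was the lower under both agonists, and the interval of the difference was wide (log2 -0.10, 95% interval -1.03 to 0.82).

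Diablo, the gene of the IAP antagonist SMAC, had 68.2, 64.2 and 67.7 CPM in CT26 cells with RIG-I agonist, against 53.3, 61.0 and 62.7 CPM with control agonist. The groups did not overlap, but the difference did not pass (log2 0.18, SE 0.07, unadjusted p = 0.0234, adjusted p = 0.0584) unless control replicate 3 was left out (adjusted p = 0.0278). In E0771 it had 85.5 and 73.5 CPM with RIG-I agonist and 79.7 and 62.8 CPM with control agonist (log2 0.16, 95% interval -0.28 to 0.60). In MC38 it had 47.9 and 44.5 CPM with RIG-I agonist and 50.6 and 48.6 CPM with control agonist (log2 -0.11, 95% interval -0.24 to 0.02). The groups overlapped in E0771 and not in MC38, where RIG-I was the lower. Diablo overlaps B3gnt4 and other annotated genes, and its counts were not whole in 11 libraries, so shared reads cannot be told apart here.

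Per kb of merged exon, the ratio of Diablo to Xiap within a library averaged 2.48 ± 0.13 in CT26 cells with RIG-I agonist and 1.84 ± 0.13 with control agonist (SD, n = 3 each; two-sided exact permutation p = 0.1, the smallest that 3 against 3 allows). In MC38 it was 1.44 ± 0.07 under both agonists. In E0771 it was 5.72 ± 2.83 with RIG-I and 4.69 ± 2.30 with control agonist (n = 2 each). The same kind of ratio of Birc3 to Birc2 averaged 0.213 ± 0.016 with RIG-I and 0.159 ± 0.032 with control agonist in CT26 (exact permutation p = 0.1), 0.374 ± 0.018 and 0.0889 ± 0.0163 in E0771, and 0.247 ± 0.022 and 0.152 ± 0.006 in MC38. With 2 libraries per agonist no exact permutation p below 0.333 is possible. Birc2 thus stayed the more abundant of the neighbours per kb in every group.

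Casp6, an executioner caspase that cleaves nuclear lamins, had 16.4, 16.6 and 15.7 CPM in CT26 cells with RIG-I agonist, against 18.9, 20.2 and 21.1 CPM with control agonist. It fell to 0.807 of the control level (log2 -0.31, SE 0.07, adjusted p = 0.00364), without overlap. With the spread shared over all 14 libraries its adjusted p was 0.0795 (SE 0.14). The fall was called in each of the 6 edgeR fits of CT26 without 1 library (adjusted p up to 0.0246). In E0771 Casp6 had 10.8 and 8.35 CPM with RIG-I agonist and 9.97 and 14.6 CPM with control agonist (log2 -0.36, 95% interval -1.09 to 0.36). In MC38 it had 10.3 and 7.68 CPM with RIG-I agonist and 10.2 and 8.98 CPM with control agonist (log2 -0.13, 95% interval -0.45 to 0.19). The groups overlapped in both of these lines.

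Casp9, the initiator caspase of the apoptosome, had 30.8 and 29.4 CPM in MC38 cells with RIG-I agonist, against 35.3 and 36.1 CPM with control agonist. It fell to 0.840 of the control level (log2 -0.25, SE 0.07, adjusted p = 0.00869). The fall was not called by DESeq2 (adjusted p = 0.302), with the shared spread (0.128) or without RIG-I replicate 2 (0.096). In E0771 Casp9 had 47.4 and 47.9 CPM with RIG-I agonist and 56.4 and 58.6 CPM with control agonist. These groups did not overlap either, but the difference did not pass (log2 -0.27, SE 0.12, adjusted p = 0.538). In CT26 it had 22.8, 24.8 and 25.1 CPM with RIG-I agonist and 27.5, 27.4 and 24.5 CPM with control agonist (log2 -0.13, 95% interval -0.28 to 0.03, adjusted p = 0.193), and it was called without control replicate 3 (adjusted p = 0.0467).

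Apaf1, which encodes the apoptosome scaffold, was called in none of the 3 lines by edgeR, and its unadjusted p was 0.445, 0.972 and 0.0719 in CT26, E0771 and MC38. It had 23.3, 23.0 and 24.1 CPM in CT26 cells with RIG-I agonist and 26.7, 22.7 and 23.9 CPM with control agonist. E0771 cells had 34.5 and 37.2 CPM with RIG-I agonist and 36.4 and 35.1 CPM with control agonist. In MC38 it had 65.7 and 73.8 CPM with RIG-I agonist and 63.8 and 66.2 CPM with control agonist. Its log2 fold change had a 95% interval of -0.22 to 0.10 in CT26. The interval ran over -0.33 to 0.34 in E0771 and over -0.01 to 0.24 in MC38. Without RIG-I replicate 1 it was called higher in MC38 (adjusted p = 0.0209), and DESeq2 called it in none of the lines.

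**Figure D2:**
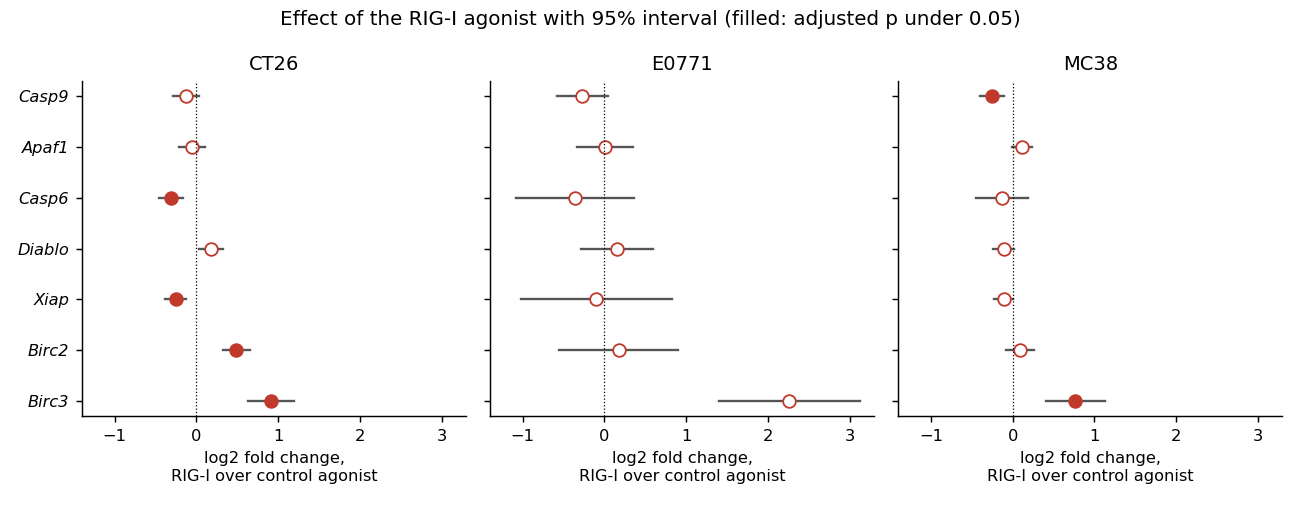
Log2 fold change, RIG-I over control agonist (horizontal axes), with its 95% interval for each gene in each line. Filled points passed an adjusted p under 0.05 and open points did not. Birc3 lies farthest to the right in each line, at 0.91 in CT26, 2.26 in E0771 and 0.76 in MC38.

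The lines differed in their levels under control agonist, as most genes did. In the fit of all 14 libraries 70.3% of genes were called between CT26 and E0771, 73.6% between CT26 and MC38 and 64.1% between E0771 and MC38, and line and count table cannot be told apart in these contrasts. Apaf1 was highest in MC38 and lowest in CT26, with log2 differences of -0.87 for E0771 against MC38 (SE 0.09) and -0.44 for CT26 against E0771 (SE 0.08, adjusted p = 0.000434). Casp9 was highest in E0771, above MC38 by 0.68 (SE 0.09), and CT26 was lowest, below MC38 by 0.33 (difference -0.33, SE 0.08). Casp6 was highest in CT26, above E0771 by 0.82 (SE 0.17), and E0771 and MC38 did not differ beyond the test (0.34, SE 0.19, adjusted p = 0.135) unless E0771 control replicate 1 was left out (0.0134). Xiap was lowest in E0771, at -1.07 against MC38 (SE 0.24, adjusted p = 0.00198), and CT26 and MC38 did not differ beyond the test (0.00, SE 0.20). Birc2 was likewise lowest in E0771, at -0.51 against MC38 (SE 0.18, adjusted p = 0.0268), a call that was lost without E0771 control replicate 1 (adjusted p = 0.231) or MC38 control replicate 1 or 2 (0.106 and 0.0684). CT26 exceeded E0771 in Birc2 by 0.42 (SE 0.17, adjusted p = 0.0367), which was lost without CT26 control replicate 1 or 3 (0.0767 and 0.0926) or E0771 control replicate 1 (0.335). Diablo was lowest in MC38, with E0771 above it by 0.51 (SE 0.12) and CT26 by 0.35 (SE 0.11, adjusted p = 0.00835), the CT26 call lost without MC38 control replicate 2 (adjusted p = 0.0595).

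Per kb of merged exon, Diablo was the most abundant member in each of the 6 groups, between 12.7 ± 0.65 CPM per kb in MC38 with RIG-I agonist and 21.9 ± 2.3 in E0771 with RIG-I agonist (SD, n = 2 each). Birc3 was the least abundant in each, between 0.415 ± 0.016 CPM per kb in E0771 with control agonist and 1.99 ± 0.50 in E0771 with RIG-I agonist. The middle of the order changed with the line. Casp6 was second in CT26 under both agonists, Casp9 second in E0771 and Xiap second in MC38, while Apaf1 was sixth in CT26 under both agonists.

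Of 9 other genes of the execution phase, such as those of cytochrome c, the DNA fragmentation factors and PARP1, all 9 were tested in CT26, where 3 rose and 2 fell (median log2 fold change 0.05), beside 38.4% of all genes called. In MC38 2 of 8 rose and 1 fell (median 0.02), a share near the 35.8% of all genes called. In E0771 0 of 9 were called (median 0.00), beside 1.56% of all genes. The medians over all genes were within 0.01 of 0. Sept4, whose ARTS isoform binds XIAP in human cells, had 2.69 ± 0.32 CPM with RIG-I and 0.925 ± 0.214 with control agonist in CT26 (log2 1.53, SE 0.22, adjusted p = 9.58e-05), and was called in neither E0771 (-1.04, SE 0.55) nor MC38 (-0.21, SE 0.37). With the replicate block, edgeR called Sept4 lower in E0771 (-1.01, SE 0.16, adjusted p = 0.00045). Without the block the E0771 value ranged over -1.61 to -0.20 when 1 library was left out. It was lowest without RIG-I replicate 2 and highest without control replicate 2.

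Of 7 other genes with the BIR domain of the IAP family, 5 were tested in each line, and Birc7 and Naip1 did not pass the filter. In CT26 3 rose and 1 fell, beside 38.4% of all genes called. In MC38 1 rose and 1 fell, a share near the 35.8% of all genes called, and in E0771 0 were called, beside 1.56%. Naip5, a sensor of bacterial flagellin, rose in CT26 (log2 0.84, SE 0.12, adjusted p = 0.000127) and in MC38 (1.04, SE 0.30, adjusted p = 0.00942). In MC38 Naip5 was not called by DESeq2 (adjusted p = 0.223), with the shared spread (0.165), without control replicate 1 (0.119) or without RIG-I replicate 1 (0.0662), and in CT26 it was not called with the shared spread (0.055). Naip6 rose in CT26 (0.61, SE 0.10, adjusted p = 0.000305) and was at 0.35 in MC38 (SE 0.17, adjusted p = 0.122). In E0771 Naip6 was at 1.24 (SE 0.41, unadjusted p = 0.0295, adjusted p = 0.387) with no overlap between the groups, and it was called with the shared spread (0.00505). With the replicate block it was called there as well (adjusted p = 0.018). The Naip genes are related copies, so values of single members are uncertain.

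Of 22 genes that work with cIAP1 and cIAP2 at TNF receptors, 10 rose and 1 fell in CT26 (median log2 fold change 0.14), where 19.8% of all genes rose and 18.6% fell. In MC38 8 rose and 1 fell (median 0.10), where 18.9% of all genes rose and 16.9% fell. In E0771 0 were called (median 0.22), beside 1.56% of all genes. This list was chosen with earlier results of these data known, so its counts are a description and no test of the list. Traf1, an adaptor that binds the cIAP proteins through TRAF2, had 16.9 ± 0.02 CPM with RIG-I and 3.78 ± 0.43 with control agonist in CT26 (log2 2.16, SE 0.09, adjusted p = 3.27e-10). In MC38 Traf1 had 38.7 ± 0.4 CPM with RIG-I and 25.2 ± 0.3 with control agonist (log2 0.62, SE 0.07, adjusted p = 6.36e-07), not called with the shared spread (adjusted p = 0.166). E0771 cells had 11.1 ± 6.1 and 1.75 ± 0.50 CPM with RIG-I and control agonist (log2 2.65, SE 0.52, adjusted p = 0.126), and it was called there by DESeq2 (adjusted p = 0.000388), by edgeR without the filter (0.0304), without RIG-I replicate 2 (0.0217) and with the shared spread (0.000218). Rnf31, the catalytic subunit of the linear ubiquitin ligase, rose 1.99-fold in CT26 (SE 0.07 on the log2 scale, adjusted p = 4.27e-08) and 1.66-fold in MC38 (log2 0.73, SE 0.06, adjusted p = 9.24e-10). In E0771 Rnf31 was at 0.69 (SE 0.20, adjusted p = 0.316) and was called with the shared spread (0.00256). With the replicate block edgeR called both Traf1 (adjusted p = 2.00e-06) and Rnf31 (0.000167) higher in E0771.

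Tnfaip3, which encodes the NF-kB inhibitor A20, rose 2.11-fold in CT26 (log2 1.08, SE 0.06, adjusted p = 1.33e-08). It was at 2.83 in E0771 (SE 0.51, adjusted p = 0.0994), where DESeq2 called it (adjusted p = 1.85e-06), as did edgeR with the shared spread (5.16e-05) or without control replicate 1 (0.00747) or 2 (0.0465). The replicate block called Tnfaip3 in E0771 too (adjusted p = 4.31e-08). In MC38 Tnfaip3 was at 0.25 (SE 0.17, adjusted p = 0.251). Traf2, the adaptor that brings the cIAP proteins to the receptor, rose 1.48-fold in CT26 (log2 0.56, SE 0.07, adjusted p = 2.67e-05) and was at 0.63 in E0771 (SE 0.15, adjusted p = 0.193) and 0.16 in MC38 (SE 0.07, adjusted p = 0.0733). With the replicate block it was called in E0771 (adjusted p = 0.000233). In E0771 Traf2 was called with the shared spread (adjusted p = 0.00133), and in MC38 without the filter (0.0434) or without control replicate 2 (0.0233).

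**Figure D3:**
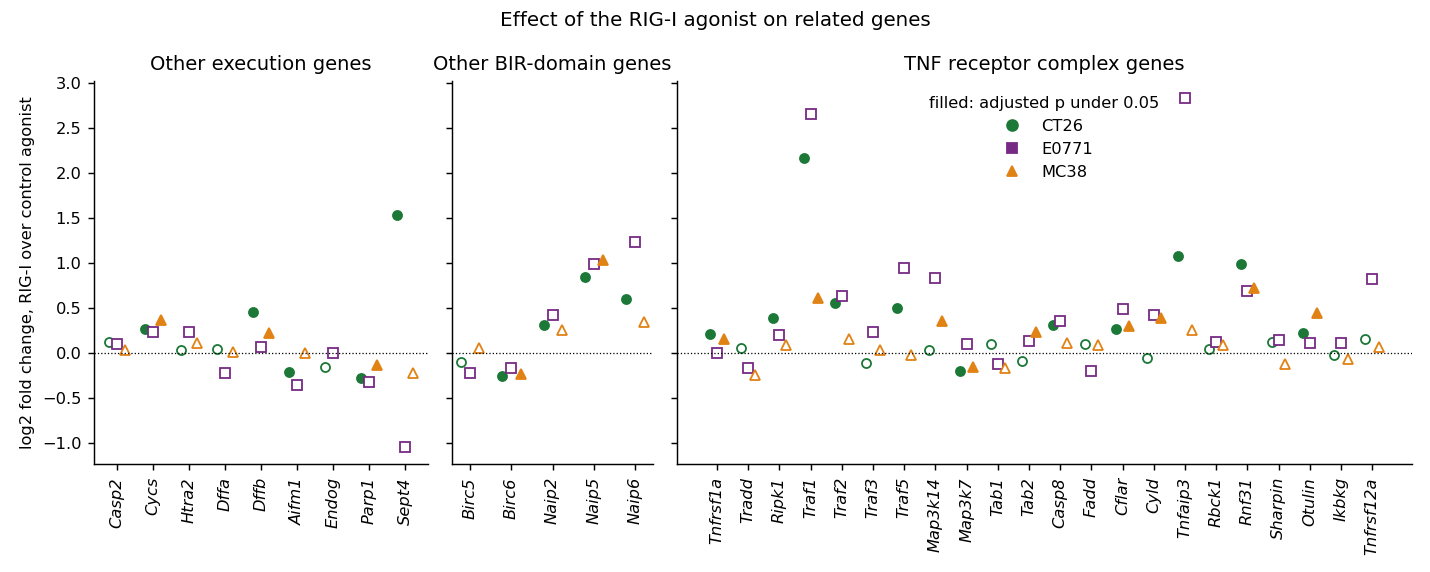
Log2 fold change, RIG-I over control agonist (vertical axis), of the related genes that were tested, in the lists of execution genes, BIR-domain genes and TNF receptor complex genes. Circles are CT26, squares E0771 and triangles MC38, and filled symbols passed an adjusted p under 0.05. Traf1 at 2.16 in CT26 is the highest filled symbol.

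The genes whose pattern was most like that of a member were found by Pearson's r of log2 CPM, centred on each line, over the 14 libraries and 14657 genes. The 14 points share line, table and agonist, so r is a description. Replicate differences also enter r, and in E0771 same-numbered libraries deviated together (r = 0.677). There Xiap and Birc2 were lower in replicate 1 under both agonists, and the part of that split in r was not tested. For Birc3 these were H2-M3 (r = 0.99), a class Ib MHC gene, and Iigp1 (r = 0.99), an interferon-inducible GTPase gene. For Birc2 they were Zfp345 (r = 0.96) and Zfp617 (r = 0.95), both zinc finger genes. Xiap was closest to Zfp871 (r = 0.98) and Cr1l (r = 0.97), and Casp9 to Tacc1 and Pcyox1l (r = 0.96 each). Casp6 was closest to Ndufaf7 (r = 0.94) and Tm2d2 (r = 0.93). Diablo was closest to Dctn5 (r = 0.94) and Dynll1 (r = 0.93), and Apaf1 to Asb7 (r = 0.87) and Gm9512 (r = 0.86).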

How the data were processed

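Poly(A)-selected stranded libraries of 14 cell samples were analysed. The authors deposited 1 table of estimated counts per gene for each line. Per the submitters' processing notes, Salmon, DESeq2 and the GRCm38 build were used, without roles; versions and annotation are not given in the sources used here. Estimated counts divide reads between similar sequences, so values of related genes such as Birc2 and Birc3 carry an error that the replicates may share. Columns were matched to samples by name. Counts were rounded to whole numbers. The filter was filterByExpr at a minimum count of 10, with TMM scaling and edgeR 4.0.16 quasi-likelihood tests with robust dispersions (R 4.3.3), run per line, and differences between lines came from 1 fit of 14 libraries and 6 groups. The common dispersion was 0.0149 there and 0.041 when E0771 was fitted by itself, so p-values of that fit can be too small where E0771 enters. The common dispersion was 0.0104 when CT26 was fitted by itself and 0.000927 when MC38 was, the latter from 2 libraries per agonist. Both lie below that of the shared fit, so p-values with the shared spread can be too large in CT26 and MC38. If those MC38 libraries were technical repeats, p-values of the MC38 fit can be too small. CPM use TMM-scaled totals within a line. Levels per kb use merged exons of GENCODE basic transcripts. An adjusted p under 0.05 was called. The tests were run on data simulated from the dispersions of the same fits, which cannot show whether those dispersions are right. DESeq2 1.42.0, other size factors, no filter, a shared spread, a replicate block and leaving out each library were tried. In CT26 same-numbered libraries deviated together (r = 0.143, 0.157 and 0.311), but so did RIG-I replicate 2 and control replicate 1 (r = 0.152). A pairing by number is not stated in the labels, and the data do not settle it for replicates 1 and 2. The replicate block changed no member's call in CT26. All 7 members are named, with related genes called at an absolute log2 fold change of at least 0.5 in any line, except for items that are not reported here. Members and lists were chosen with earlier results of these data known.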

Additional observations from a re-analysis of the deposited data

Results flagged for a closer look

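Birc3 was singled out because its response to the RIG-I agonist differed between lines by a test of the difference itself. The effect in CT26 minus that in E0771 was -1.39 on the log2 scale (SE 0.29, adjusted p = 0.0166 by edgeR), and the effect in E0771 minus that in MC38 was 1.49 (SE 0.32, adjusted p = 0.0297). The second call was lost in 10 of the 14 fits without 1 library (adjusted p up to 0.117), and the first was kept in all 14 (up to 0.0484). The common dispersion of this fit was 0.0149, against 0.041 for E0771 fitted by itself, so both p-values can be too small. Birc3 was higher with RIG-I agonist in all libraries of each line, but 51.4% of genes tested in CT26, 40.3% in E0771 and 67.2% in MC38 also had groups without overlap.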

How the results depend on the processing

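With the spread shared over all 14 libraries, the genes called numbered 3503 in CT26, 1588 in E0771 and 998 in MC38. DESeq2 called 415 in E0771 and 1957 in MC38, and for the differences in effect 1020 for CT26 minus MC38 and 499 for E0771 minus MC38. Without the low count filter 286 were called in E0771. Same-numbered libraries deviated together in E0771 (r = 0.677) and not in MC38 (r = -0.0127), and with 2 pairs per line they share only a number. With the replicate block 2458 genes were called in E0771, among them Birc3 (adjusted p = 1.77e-05), Tnfaip3 (4.31e-08), Traf1 (2.00e-06), Rnf31 (0.000167), Traf2 (0.000233) and Naip6 (0.018) as higher and Sept4 (0.00045) as lower, and 1537, 1816 and 880 for CT26 minus E0771, CT26 minus MC38 and E0771 minus MC38. Under the block Diablo was also called between CT26 and E0771 control libraries (adjusted p = 0.0046). The cause of these shifts was not tested.

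Leaving out 1 library at a time gave 349 to 863, 167 to 1049 and 166 to 477 called genes for those 3 differences. Several log2 values that were not called changed sign on leaving out 1 library. These were Apaf1 in CT26 (-0.11 to 0.0072); Apaf1 (-0.050 to 0.058), Xiap (-0.58 to 0.29), Birc2 (-0.17 to 0.45), Diablo (-0.0050 to 0.34) and Naip5 (-0.17 to 1.62) in E0771; and Casp6 (-0.32 to 0.088) and Birc2 (-0.017 to 0.16) in MC38. For CT26 minus E0771 they were Casp6 (-0.29 to 0.27), Xiap (-0.60 to 0.30) and Diablo (-0.20 to 0.13), and for CT26 minus MC38 Birc3 (-0.032 to 0.19). For E0771 minus MC38 they were Casp6 (-0.52 to 0.041), Xiap (-0.51 to 0.39) and Birc2 (-0.29 to 0.34). Under control agonist they were Diablo for CT26 against E0771 (-0.31 to 0.025), and Xiap (-0.074 to 0.095) and Birc3 (-0.12 to 0.11) for CT26 against MC38. Values near 0 also changed sign without the filter, namely Apaf1 in E0771 (-0.0030), Diablo for CT26 minus E0771 (0.011) and Xiap between CT26 and MC38 control libraries (0.0046). They did so with DESeq2 size factors for Diablo in CT26 minus E0771 (0.0036) and Xiap in E0771 minus MC38 (0.0069), and with the shared spread for Apaf1 in E0771 (-0.0037).

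Of 1299 recomputed values, 1161 kept their direction and side of the threshold or their size. Birc3 had 22 to 286 counts per library, the fewest of the members, which limits its precision.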
